A study of Mus musculus with 10 samples.

Results

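The collagen chain genes are all gene symbols of the deposited table that consist of Col, a type number, the letter a and a chain number. They numbered 44 of 55453 symbols, and all 44 had at least 1 count. They were compared between the aortae of 5 young male C57BL/6 mice aged 14.5 weeks and 5 old male C57BL/6 mice aged 92.5 weeks by the labels. The labels give no treatment apart from age, and the study's methods state that mice of both ages were bought, kept on standard chow and killed at the same time. Each library held poly(A) RNA of 1 aorta cleaned of the surrounding fat, so the wall was measured as a whole, with its smooth muscle, adventitial fibroblasts and endothelium. In such bulk RNA, fewer cells of a type and less RNA per cell cannot be told apart.

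Collagens are trimers of alpha chains wound around each other, and glycine opens every Gly-X-Y triplet of the helix because no larger residue fits its core. Fibrillar collagens (types I, II, III, V, XI, XXIV and XXVII) assemble into the banded fibrils that bear the tension of the arterial wall. Type IV forms the sheet of the basement membrane around smooth muscle cells and under the endothelium, and type VI forms beaded microfilaments that link cells to the fibrils. FACIT collagens sit on the surface of fibrils, type VIII forms short-chain networks made by smooth muscle and endothelial cells, and the multiplexins XV and XVIII lie in basement membrane zones.

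The repeat that makes a chain a collagen can be read in the coding sequence, and its length and its breaks differ between classes. The lines show coding stretches of the GENCODE M21 principal transcripts (GRCm38) for chains on which the results turn, each with 20 glycine codons in capitals. For all but *Col4a1*, the stretch is the start of the longest uninterrupted Gly-X-Y run, and for *Col4a1* it spans a break of 10 residues that interrupts the repeat.
Col1a1: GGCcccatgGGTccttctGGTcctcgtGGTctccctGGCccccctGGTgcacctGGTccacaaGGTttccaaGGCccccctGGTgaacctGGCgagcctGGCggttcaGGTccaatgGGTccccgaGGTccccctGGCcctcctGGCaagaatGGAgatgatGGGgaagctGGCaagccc
Col1a2: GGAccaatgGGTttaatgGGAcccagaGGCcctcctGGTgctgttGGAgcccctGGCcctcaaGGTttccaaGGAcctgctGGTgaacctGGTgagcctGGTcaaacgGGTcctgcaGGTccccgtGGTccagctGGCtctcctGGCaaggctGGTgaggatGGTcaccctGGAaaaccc
Col3a1: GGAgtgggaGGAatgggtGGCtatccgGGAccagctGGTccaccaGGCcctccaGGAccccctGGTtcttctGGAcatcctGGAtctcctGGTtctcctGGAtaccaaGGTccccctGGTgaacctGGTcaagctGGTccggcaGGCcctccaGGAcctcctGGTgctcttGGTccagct
Col6a1: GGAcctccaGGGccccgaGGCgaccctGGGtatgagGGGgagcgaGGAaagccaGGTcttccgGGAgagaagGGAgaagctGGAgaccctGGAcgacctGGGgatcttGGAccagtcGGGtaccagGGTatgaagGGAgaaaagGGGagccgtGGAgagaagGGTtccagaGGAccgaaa
Col4a1: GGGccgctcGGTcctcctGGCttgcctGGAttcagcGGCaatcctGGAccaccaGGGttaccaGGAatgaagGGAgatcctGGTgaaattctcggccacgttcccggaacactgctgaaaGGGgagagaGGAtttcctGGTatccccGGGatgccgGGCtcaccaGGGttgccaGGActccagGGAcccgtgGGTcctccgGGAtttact
Col8a1: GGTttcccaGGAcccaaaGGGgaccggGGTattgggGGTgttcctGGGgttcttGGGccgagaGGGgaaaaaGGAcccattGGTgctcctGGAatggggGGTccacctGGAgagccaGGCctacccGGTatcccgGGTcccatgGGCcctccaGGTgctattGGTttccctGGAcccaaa

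In the 11 fibrillar genes the longest run ranged from 216 to 344 triplets, and 9 of them exceeded 300. *Col1a1* had 338 triplets in its longest run, *Col1a2* 339 and *Col3a1* 344. The 6 type IV chains broke the repeat into 23 to 27 runs of at least 3 triplets, of which the longest held 39 to 66. *Col6a1* and *Col6a2* each carried a run of 87 triplets, which with 2 shorter runs made up 31.9% of the residues of either chain. *Col8a1* had 60 triplets in its longest run.

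The libraries held 19640401 to 22886153 counts each, and the chi-square between any 2 libraries of 1 group was 8.06 to 58.8 times its degrees of freedom in 20 pairs, so that no library repeated another within counting error. Smooth muscle markers were high in every library, with a summed level of 8 markers between 800307 and 949962 normalized counts in young and between 740029 and 905428 in old aortae. Of these 8, *Smtn* was called higher in old aortae (log2 fold change 0.29, edgeR adjusted p = 0.0217), beside 6.48% of all tested genes, and none was called lower. Old replicate 2 stood apart, with 11.0% of its counts on the mitochondrial genome against 4.50% to 6.22% in young libraries, and it was the lowest old library for 9 of the 10 collagen genes called lower. The calls, the chain ratios, the collagen shares, the levels per kb and the gene lists were therefore also computed without it.

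Collagen chain genes took up less of the aortic transcriptome in old mice. Their share of all counts was 2.20% ± 0.195 (SD, n = 5) in young mice, against 1.53% ± 0.205 (SD, n = 5) in old mice. The young libraries ranged from 1.91% to 2.38% and the old ones from 1.20% to 1.71%, without overlap. Without old replicate 2, the old mean was 1.62%.

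Of the 44 genes, 36 passed the low-count filter and were tested, 10 were called lower in old aortae at an adjusted p below 0.05 and 1 was called higher. Across all 14614 tested genes, 4.99% were called lower and 6.48% higher. The median log2 fold change of the tested collagen genes was -0.24, beside 0.00339 over all tested genes. In 8 collagen genes every old library lay below every young library, which held for 4.55% of all tested genes, and in 0 collagen genes did every old library lie above every young one, which held for 5.37%. At an unadjusted p below 0.05, 16 collagen genes were lower in old aortae, against 12.6% of all tested genes. DESeq2 called 13 collagen genes lower, against a background of 6.33%, and 1 higher.

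The 10 lower genes were *Col1a1*, *Col1a2*, *Col3a1*, *Col5a1* and *Col5a2* among 10 tested fibrillar genes, *Col4a1*, *Col4a5* and *Col4a6* among 6 of type IV, and *Col6a1* and *Col6a2* among 5 of type VI. The median log2 fold change was -0.44 for fibrillar genes, -0.35 for type IV and -0.24 for type VI. Among the 15 tested genes of all other classes the median was -0.13, 0 were called lower by edgeR and 1, *Col8a1*, was called higher. DESeq2 also called *Col16a1* lower among them. Whether the classes differ was not tested.

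**Figure D1:**
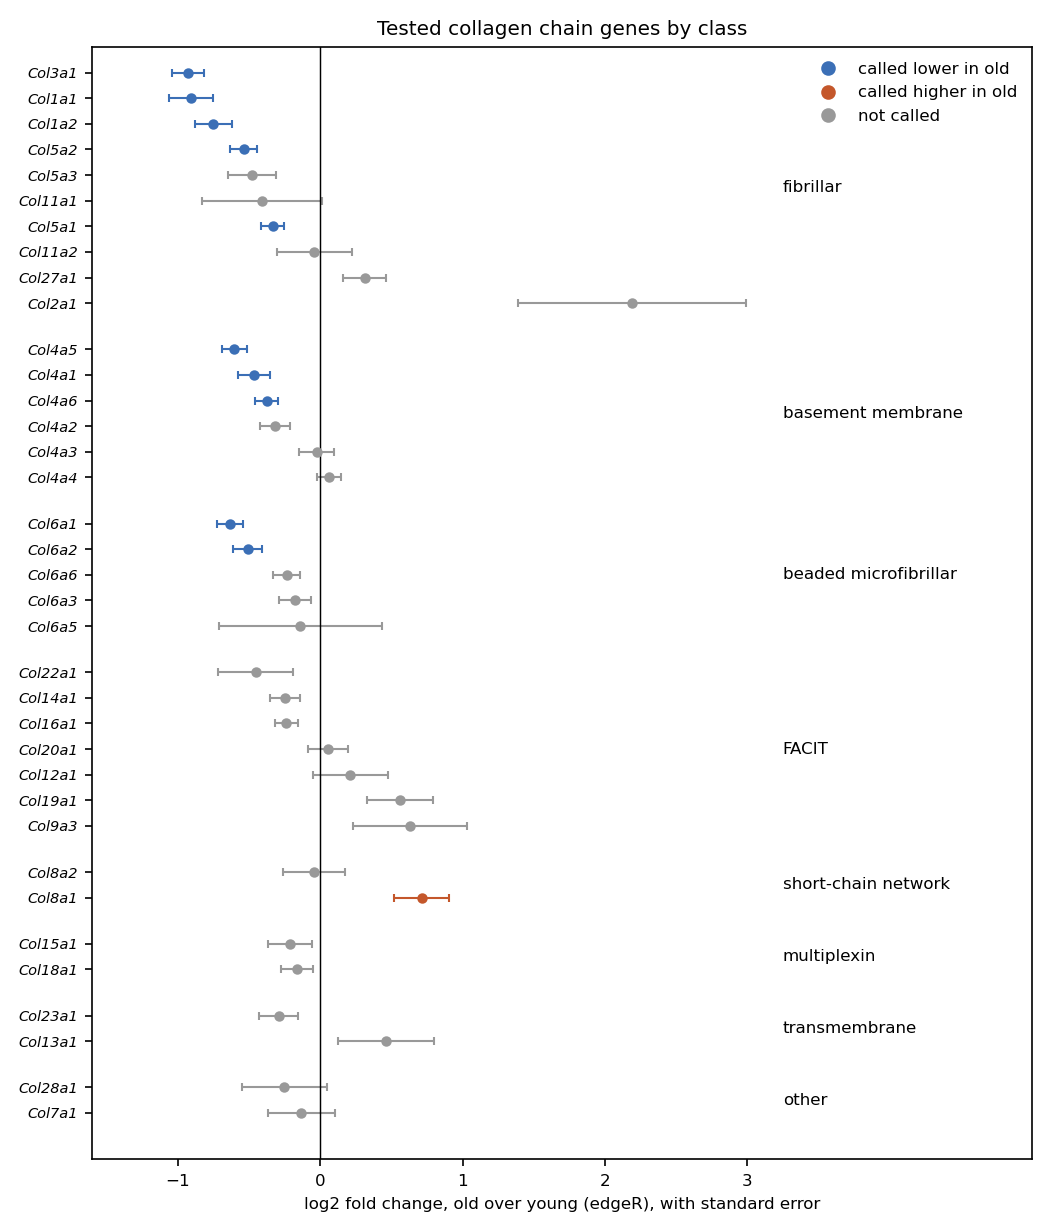
Log2 fold change of old over young aortae (edgeR, x axis) with its standard error for the 36 tested collagen chain genes, grouped by class on the y axis. The 10 genes called lower lie in the fibrillar, basement membrane and beaded microfibrillar classes, from -0.93 for Col3a1 to -0.33 for Col5a1, and Col8a1 is the 1 gene called higher.

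All 10 lower genes were among the 15 collagen genes with a mean of at least 5000 normalized counts in young aortae, and the 21 tested genes under that level held 0 lower calls and 1 higher call. Of all tested genes at or above that level 13.5% were called lower, and under it 4.59%. The level of 5000 was chosen after the values were seen.

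The genes of the type I trimer, which joins 2 chains of *Col1a1* to 1 of *Col1a2* and is the main load-bearing collagen of the adventitia, fell together. *Col1a1* measured 60028, 66097, 44381, 62561 and 59989 normalized counts in young replicates 1 to 5 and 31546, 20983, 39316, 34157 and 29349 in old replicates 1 to 5. It fell from 58611 ± 8337 to 31070 ± 6754 normalized counts (SD, n = 5; log2 fold change -0.91, SE 0.15, edgeR adjusted p = 0.00277). *Col1a2* measured 83551, 97595, 73081, 92050 and 95045 normalized counts in young replicates 1 to 5 and 52386, 36753, 64078, 56842 and 50543 in old replicates 1 to 5. It fell from 88264 ± 10002 to 52121 ± 10050 normalized counts (SD, n = 5; log2 fold change -0.75, SE 0.13, edgeR adjusted p = 0.00282). For both genes each old library lay below each young library, and old replicate 2 was the lowest.

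*Col3a1* encodes the only chain of type III collagen, which co-polymerises with type I in distensible tissues such as arteries. *Col3a1* measured 72003, 82784, 66952, 85368 and 77420 normalized counts in young replicates 1 to 5 and 43715, 31795, 46858, 43614 and 34915 in old replicates 1 to 5. It fell from 76905 ± 7575 to 40179 ± 6460 normalized counts (SD, n = 5; log2 fold change -0.93, SE 0.11, edgeR adjusted p = 0.000241), which gave it the smallest p of the collagen genes. The groups did not overlap. Without old replicate 2, *Col3a1* and the other 9 genes called lower were all still called. *Col3a1* lies on chromosome 1 (GRCm38, chr1:45311538-45349706, plus strand), and 1.44% of its exonic sequence is overlapped by the gene Gm47302 on the same strand.

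*Col5a2*, which lies 24614 bases from *Col3a1* (chr1:45374321-45503282, minus strand), encodes a chain of type V collagen, which starts type I fibrils and limits their diameter. *Col5a2* measured 11716, 14471, 13234, 14165 and 14284 normalized counts in young replicates 1 to 5 and 10811, 7928, 10449, 8994 and 8350 in old replicates 1 to 5. It fell from 13574 ± 1143 to 9306 ± 1273 normalized counts (SD, n = 5; log2 fold change -0.54, SE 0.09, edgeR adjusted p = 0.00292), and the groups did not overlap. *Col5a1* measured 14277, 16739, 13154, 16267 and 15289 normalized counts in young replicates 1 to 5 and 13420, 11307, 12279, 11649 and 11046 in old replicates 1 to 5. This major chain of type V fell from 15145 ± 1461 to 11940 ± 948 normalized counts (SD, n = 5; log2 fold change -0.33, SE 0.08, edgeR adjusted p = 0.0155), and old replicate 1 lay above young replicate 3. *Col5a3* measured 683, 466, 325, 525 and 402 normalized counts in young replicates 1 to 5 and 366, 377, 315, 370.2 and 287 in old replicates 1 to 5. For this minor chain the values overlapped and the gene was not called by edgeR (log2 fold change -0.48, SE 0.17, edgeR adjusted p = 0.0948). DESeq2 called *Col5a3* lower (DESeq2 adjusted p = 0.0391).

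The remaining fibrillar genes were expressed at low levels in both groups. *Col2a1* measured 2.04, 3.02, 29.9, 5.79 and 5.12 normalized counts in young replicates 1 to 5 and 37.0, 9.81, 116, 22.2 and 25.3 in old replicates 1 to 5. *Col2a1*, the chain of cartilage collagen, was not called (log2 fold change 2.19, SE 0.80, edgeR adjusted p = 0.108), and old replicate 3 and young replicate 3 each stood far above the others of their group. It was called higher without young replicate 3 (log2 fold change 3.37, edgeR adjusted p = 0.023). Of the chondrocyte markers, 4 of 5 tested (*Acan*, *Comp*, *Hapln1* and *Sox9*) were called higher in old aortae, beside 6.48% of all tested genes, with a summed level of 8 markers of 2031 to 2948 in young and 3307 to 4485 normalized counts in old libraries, while *Matn1* and *Cnmd* averaged under 1 normalized count in either group. The part of those markers in the level of *Col2a1* was not tested. *Col11a1*, *Col11a2* and *Col27a1*, minor fibril chains, had edgeR adjusted p values of 0.584, 0.942 and 0.21, and *Col24a1* was not tested.

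**Figure D2:**
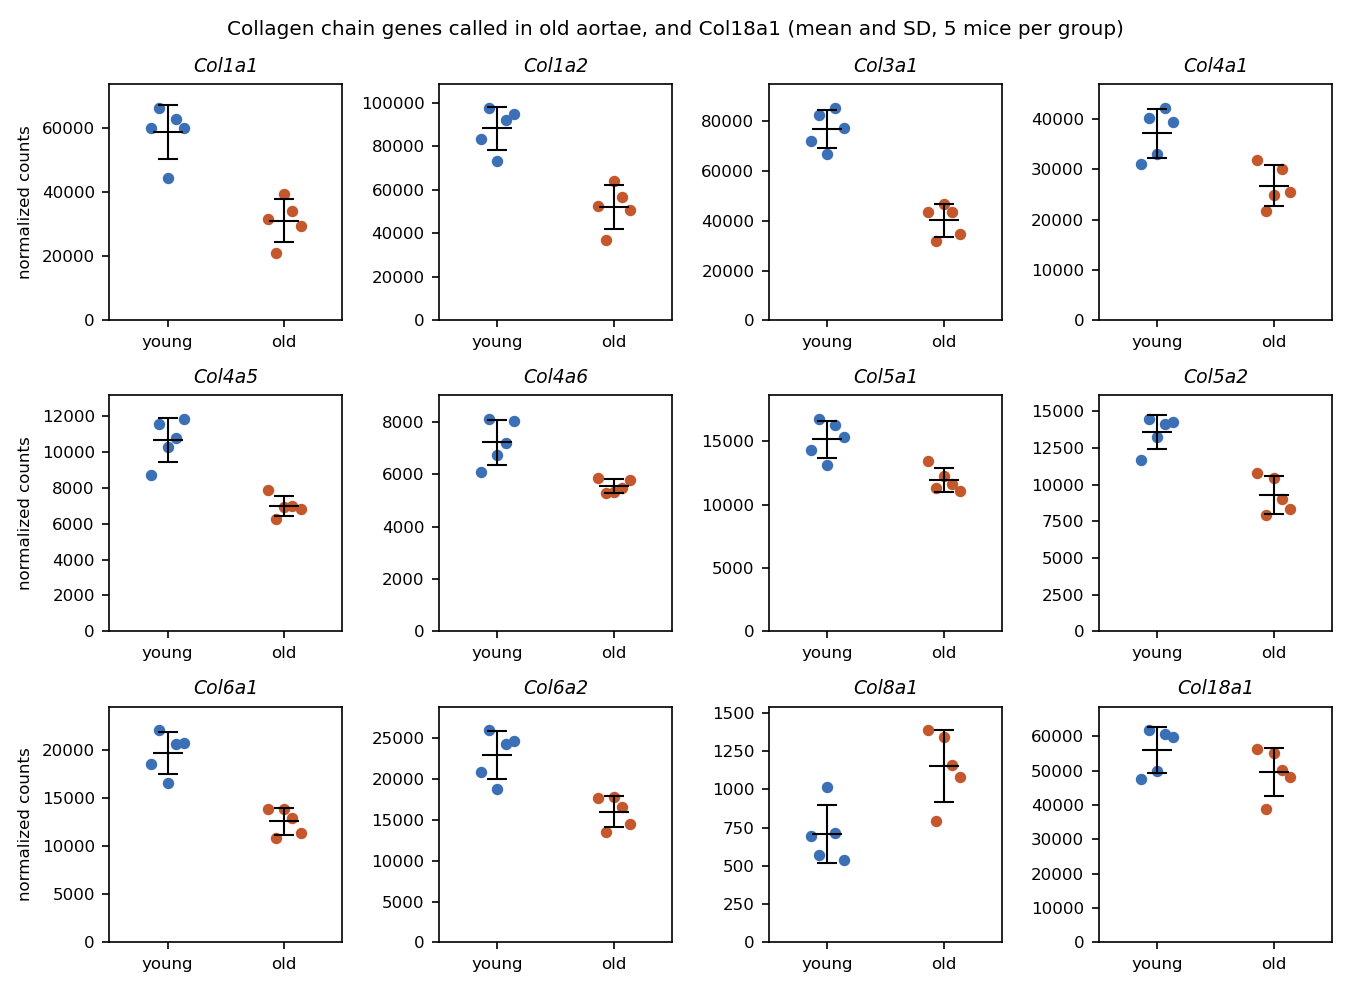
Normalized counts (y axis, from 0) of the 11 collagen chain genes called by edgeR and of Col18a1 in 5 young and 5 old aortae, 1 point per mouse, with the mean and SD in black. The Col1a1, Col1a2, Col3a1 and Col6a1 points of old mice lie below those of all young mice, and the Col18a1 points overlap.

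Type IV chains are encoded by gene pairs that start head to head on opposite strands, and in 2 of the 3 pairs the ratio of the partners differed between ages. *Col4a1* and *Col4a2*, whose products form the common α1α1α2 trimer of basement membranes, overlap by 22 bases on chromosome 8 (chr8:11198423-11312826, minus strand, and chr8:11312805-11449287, plus strand). *Col4a1* measured 31144, 40293, 32969, 42181 and 39517 normalized counts in young replicates 1 to 5 and 31828, 21777, 24856, 29989 and 25509 in old replicates 1 to 5. It fell from 37221 ± 4856 to 26792 ± 4066 normalized counts (SD, n = 5; log2 fold change -0.47, SE 0.11, edgeR adjusted p = 0.0185), with old replicate 1 above young replicate 1, and the call was lost without young replicate 4 (edgeR adjusted p = 0.0532). *Col4a2* measured 23877, 29319, 25255, 31247 and 29592 normalized counts in young replicates 1 to 5 and 26140, 17561, 21503, 24689 and 21318 in old replicates 1 to 5. *Col4a2* was not called by edgeR (log2 fold change -0.32, SE 0.11, edgeR adjusted p = 0.0762), while DESeq2 called it lower (DESeq2 adjusted p = 0.0341).

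*Col4a5* and *Col4a6* start 1308 bases apart on the X chromosome (chrX:141475385-141689234, plus strand, and chrX:141165403-141474076, minus strand), and their products form the α5α5α6 trimer found in smooth muscle basement membranes. *Col4a5* measured 8722, 11549, 10288, 10759 and 11814 normalized counts in young replicates 1 to 5 and 7846, 6282, 6899, 6966 and 6799 in old replicates 1 to 5. It fell from 10627 ± 1227 to 6958 ± 564 normalized counts (SD, n = 5; log2 fold change -0.60, SE 0.09, edgeR adjusted p = 0.000749). *Col4a6* measured 6081, 8097, 6729, 7178 and 8011 normalized counts in young replicates 1 to 5 and 5844, 5262, 5325, 5451 and 5778 in old replicates 1 to 5. It fell from 7219 ± 857 to 5532 ± 265 normalized counts (SD, n = 5; log2 fold change -0.38, SE 0.08, edgeR adjusted p = 0.0083). For both genes the groups did not overlap. The third pair, *Col4a3* and *Col4a4*, forms a trimer with the α5 chain that is best known from the kidney filter. *Col4a3* measured 924, 884, 1117, 756 and 995 normalized counts in young replicates 1 to 5 and 850.4, 680.0, 993, 969.9 and 1076 in old replicates 1 to 5. *Col4a4* measured 1328, 1443, 1540, 1304 and 1508 normalized counts in young replicates 1 to 5 and 1460, 1210, 1460, 1606 and 1664 in old replicates 1 to 5. For both genes the young and old levels overlapped and neither was called (edgeR adjusted p = 0.927 and 0.682). The transcript C430014B12Rik on the other strand covers 5.65% of the exonic sequence of *Col4a3*, and the strand setting of the counting is not given in the sources used here.

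Type VI collagen is built from 1 chain each of α1, α2 and α3, and in old aortae the α1 and α2 genes fell while that of the large α3 chain was not called. *Col6a1* measured 18537, 22120, 16607, 20638 and 20728 normalized counts in young replicates 1 to 5 and 13893, 10898, 13932, 13010 and 11426 in old replicates 1 to 5. It fell from 19726 ± 2163 to 12632 ± 1404 normalized counts (SD, n = 5; log2 fold change -0.63, SE 0.09, edgeR adjusted p = 0.000959). *Col6a2* measured 20906, 25974, 18816, 24279 and 24589 normalized counts in young replicates 1 to 5 and 17679, 13531, 17744, 16581 and 14427 in old replicates 1 to 5. It fell from 22913 ± 2952 to 15992 ± 1922 normalized counts (SD, n = 5; log2 fold change -0.51, SE 0.10, edgeR adjusted p = 0.00659). *Col6a1* and *Col6a2* lie 85161 bases apart on the minus strand of chromosome 10, and for both the groups did not overlap.

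*Col6a3* measured 14412, 18271, 14213, 16699 and 18152 normalized counts in young replicates 1 to 5 and 17323, 11324, 13892, 15736 and 13696 in old replicates 1 to 5. The groups overlapped for *Col6a3*, with a ratio of old to young means of 0.880 (log2 fold change -0.18, SE 0.11, edgeR adjusted p = 0.346). The α3-like genes lie side by side on chromosome 9. *Col6a6* measured 758, 792, 778, 789 and 864 normalized counts in young replicates 1 to 5 and 611, 659, 624, 872 and 593 in old replicates 1 to 5. *Col6a5* measured 203, 15.1, 65.8, 34.8 and 55.3 normalized counts in young replicates 1 to 5 and 65.0, 95.9, 42.9, 89.7 and 44.7 in old replicates 1 to 5. Neither *Col6a6* nor *Col6a5* was called (edgeR adjusted p = 0.136 and 0.908). Of their 50-base windows, 3.70% for *Col6a6* and 3.42% for *Col6a5* also occur in transcripts of other genes, most often in those of each other. *Col6a4* was not tested, at 0 to 15.0 normalized counts per library.

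In the ratios that follow, errors are SD over n = 5 libraries. Ratios between chains within a library do not depend on the scaling of the libraries, and 11 were compared by exact two-sided permutation tests of the mean log2 ratio, for which the smallest p with 5 against 5 libraries is 0.00794. By the means 7 of the 11 were called. As differences in medians none of these 7 was called, all at the same value (exact permutation, adjusted p = 0.0748). Many assignments give the same medians, so the smallest p of the medians test is larger than that of the means test. These 7 ratios were at that smallest p and could not be called after adjustment, so no conclusion is drawn from the medians test. The ratio *Col6a3*/*Col6a1* was 0.829 ± 0.0386 in young and 1.14 ± 0.112 in old aortae (log2 difference 0.45, SE 0.0715, exact permutation p = 0.00794, adjusted p = 0.0175). It was at most 0.876 in the young and at least 0.997 in the old libraries. The ratio *Col6a1*/*Col6a2* was 0.863 ± 0.0203 in young and 0.791 ± 0.00880 in old aortae (log2 difference -0.13, SE 0.0167, exact permutation p = 0.00794, adjusted p = 0.0175), also without overlap. Within type VI the α1 gene was thus lower in old aortae relative to both others by the means.

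In type IV, *Col4a1*/*Col4a2* was 1.33 ± 0.0299 in young and 1.20 ± 0.0315 in old aortae (log2 difference -0.15, SE 0.0223, exact permutation p = 0.00794, adjusted p = 0.0175). *Col4a5*/*Col4a6* was 1.47 ± 0.0433 in young and 1.26 ± 0.0701 in old aortae (log2 difference -0.23, SE 0.0408, exact permutation p = 0.00794, adjusted p = 0.0175). In both pairs the groups did not overlap, and the gene named first was the more reduced one. *Col4a3*/*Col4a4* was 0.655 ± 0.0592 in young and 0.615 ± 0.0480 in old aortae, which was not called (log2 difference -0.09, SE 0.0772, exact permutation p = 0.262, adjusted p = 0.288), and *Col4a5*/*Col4a1* was not called either (log2 difference -0.13, SE 0.0751, exact permutation p = 0.127, adjusted p = 0.155).

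Among fibrillar chains, *Col1a1*/*Col1a2* was 0.663 ± 0.0438 in young and 0.594 ± 0.0174 in old aortae (log2 difference -0.16, SE 0.0468, exact permutation p = 0.0159, adjusted p = 0.0249). *Col5a1*/*Col1a1* was 0.260 ± 0.0217 in young and 0.399 ± 0.0889 in old aortae, without overlap (log2 difference 0.59, SE 0.147, exact permutation p = 0.00794, adjusted p = 0.0175). *Col5a1*/*Col5a2* was 1.12 ± 0.0869 in young and 1.29 ± 0.0938 in old aortae (log2 difference 0.21, SE 0.0691, exact permutation p = 0.0159, adjusted p = 0.0249). The calls for *Col1a1*/*Col1a2* and *Col5a1*/*Col5a2* were each lost without old replicate 2, 4 or 5, at adjusted p values of 0.0582 to 0.0624. *Col3a1*/*Col1a1* was 1.32 ± 0.120 in young and 1.31 ± 0.139 in old aortae, a difference smaller than the spread between mice (log2 difference -0.01, SE 0.0881, exact permutation p = 0.897, adjusted p = 0.897).

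**Figure D3:**
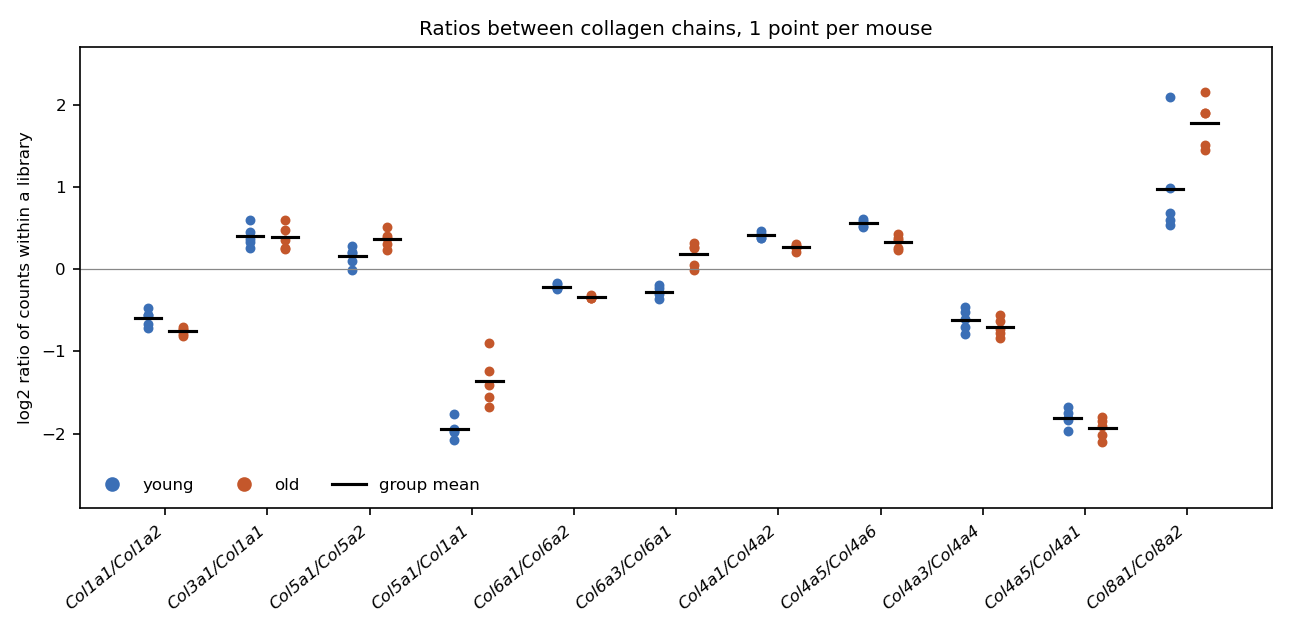
Log2 ratio of the counts of 2 collagen chain genes within a library (y axis) for the 11 ratios compared (x axis), 1 point per mouse and a line at each group mean. The groups separate for Col5a1/Col1a1, Col6a1/Col6a2, Col6a3/Col6a1, Col4a1/Col4a2 and Col4a5/Col4a6, and they overlap for Col3a1/Col1a1.

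*Col8a1*, a chain of the short-chain type VIII collagen of the vessel wall, was the 1 collagen gene called higher. *Col8a1* measured 697, 574, 1014, 716 and 538 normalized counts in young replicates 1 to 5 and 1388, 794, 1345, 1160 and 1082 in old replicates 1 to 5. It rose from 708 ± 188 to 1154 ± 238 normalized counts (SD, n = 5; log2 fold change 0.71, SE 0.19, edgeR adjusted p = 0.0365), although young replicate 3 lay above old replicate 2. The call was lost in 8 of the 10 fits that left out 1 mouse (every mouse but young replicate 3 and old replicate 2), at edgeR adjusted p values of 0.0610 to 0.0865. *Col8a2* measured 435, 378, 237, 360.2 and 371 normalized counts in young replicates 1 to 5 and 372, 179, 359.8, 425 and 381 in old replicates 1 to 5. Its partner *Col8a2* was not called (log2 fold change -0.04, SE 0.21, edgeR adjusted p = 0.925). The ratio *Col8a1*/*Col8a2* was 2.17 ± 1.20 in young and 3.50 ± 0.714 in old aortae and was not called (log2 difference 0.80, SE 0.319, exact permutation p = 0.0476, adjusted p = 0.0655), and without young replicate 3 it was called (adjusted p = 0.0175). *Col10a1*, the third short-chain gene, was not tested.

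Relative to transcript length, *Col1a1*, *Col1a2*, *Col3a1* and *Col18a1*, which encodes the precursor of endostatin, had the highest levels of the collagen genes in both groups, but their order depends on the length used. In normalized counts per kb of the principal transcript, *Col1a2* measured 16504 ± 1870 in young and 9746 ± 1879 in old mice (SD, n = 5). *Col18a1* measured 11684 ± 1413 and 10380 ± 1457 per kb, *Col3a1* 13822 ± 1361 and 7221 ± 1161, and *Col1a1* 9884 ± 1406 and 5239 ± 1139. In old aortae *Col18a1* and *Col1a2* did not differ beyond their spread, also without old replicate 2 (10950 ± 815 and 10464 ± 1126, SD, n = 4). The next levels in young aortae were those of *Col6a2* (5802 ± 748 per kb), *Col4a1* (5627 ± 734), *Col6a1* (4811 ± 527) and *Col4a2* (4319 ± 486, SD, n = 5). Whether these genes differ within libraries was not tested. Per kb of all annotated exons, the levels in young aortae were 8931 for *Col1a1*, 7973 for *Col18a1*, 7835 for *Col3a1* and 7103 for *Col1a2*.

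*Col18a1* measured 47504, 61836, 49797, 60819 and 59932 normalized counts in young replicates 1 to 5 and 56383, 38806, 55058, 50313 and 48100 in old replicates 1 to 5. *Col18a1* was not called (log2 fold change -0.16, SE 0.11, edgeR adjusted p = 0.378), nor was its relative *Col15a1* (edgeR adjusted p = 0.42). The make-up of the collagen message also differed between ages. Type I made up 30.5% ± 1.41 of the summed per-kb level of the 44 genes in young and 25.4% ± 2.27 in old mice (SD, n = 5), type III 16.0% ± 0.549 and 12.3% ± 0.588. Types XV and XVIII together made up 16.0% ± 0.845 and 20.8% ± 0.801, at summed levels of 13818 ± 1705 and 12211 ± 1829.5 normalized counts per kb. For each of these 3 shares the young and old libraries did not overlap, and no test was run on them. The shares depend on the length used, and they were not computed per kb of all annotated exons. Without old replicate 2, the old means were 26.1%, 12.3% and 21.0%. The larger share of types XV and XVIII went with a mean summed level that was not higher, and the shares of the types add up to 100% in every library.

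**Figure D4:**
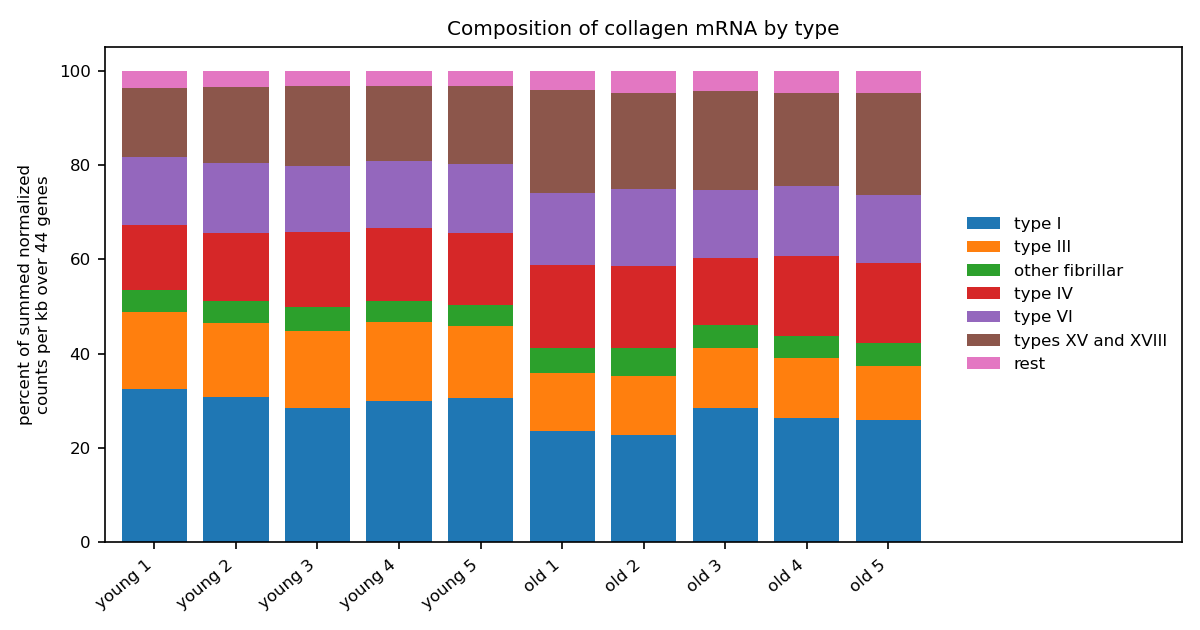
Percent of the summed normalized counts per kb of principal transcript over 44 collagen chain genes (y axis) for each of 10 aortae (x axis), stacked by type. The shares of types I and III are 30.5% and 16.0% on average in young aortae and 25.4% and 12.3% in old ones, and that of types XV and XVIII is 16.0% and 20.8%.

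None of the 7 tested FACIT genes was called by edgeR, 4 of them with a positive and 3 with a negative log2 fold change. *Col14a1*, the most abundant of them, measured 11660 ± 1620 in young and 9771 ± 1179 normalized counts in old mice (SD, n = 5; log2 fold change -0.25, SE 0.10, edgeR adjusted p = 0.148). At an unadjusted p below 0.05, *Col14a1* and *Col16a1* were lower and *Col19a1* was higher. *Col16a1* had an edgeR adjusted p of 0.069, and DESeq2 called it lower (adjusted p = 0.0442). *Col12a1*, *Col19a1*, *Col20a1*, *Col22a1* and *Col9a3* had edgeR adjusted p values from 0.149 to 0.844. The transmembrane genes *Col13a1* and *Col23a1*, the anchoring fibril gene *Col7a1* and *Col28a1* had edgeR adjusted p values from 0.184 to 0.775. The 8 untested genes were *Col6a4*, *Col9a1*, *Col9a2*, *Col10a1*, *Col17a1*, *Col24a1*, *Col25a1* and *Col26a1*, of which the highest value in any library was 15.0 normalized counts.

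The sequences upstream of the transcription start are shown for the gene with the smallest p, for *Col5a1*, for *Col8a1*, and for the 71 bases between *Col4a3* and *Col4a4*, a pair of genes that was not called. They are RefSeq promoter sequences of GRCm38.p6 without transcribed bases, and capitals mark the TATA box letters TATAAA, the CCAAT box and the GC box letters GGGCGG on either strand (the Col4a4 to Col4a3 stretch holds none of them).
Col3a1, chr1:45311288-45311537, plus strand: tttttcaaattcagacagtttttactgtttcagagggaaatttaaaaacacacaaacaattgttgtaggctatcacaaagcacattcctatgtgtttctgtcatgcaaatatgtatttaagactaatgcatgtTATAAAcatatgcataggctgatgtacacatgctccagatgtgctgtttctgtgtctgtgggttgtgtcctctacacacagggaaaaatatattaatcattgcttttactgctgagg
Col5a1, chr2:27886175-27886424, plus strand: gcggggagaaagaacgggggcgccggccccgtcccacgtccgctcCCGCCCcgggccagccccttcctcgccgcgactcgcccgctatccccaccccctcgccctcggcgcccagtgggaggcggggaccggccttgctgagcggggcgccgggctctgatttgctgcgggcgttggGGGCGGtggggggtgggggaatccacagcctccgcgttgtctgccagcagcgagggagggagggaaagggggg
Col8a1, chr16:57754738-57754987, minus strand: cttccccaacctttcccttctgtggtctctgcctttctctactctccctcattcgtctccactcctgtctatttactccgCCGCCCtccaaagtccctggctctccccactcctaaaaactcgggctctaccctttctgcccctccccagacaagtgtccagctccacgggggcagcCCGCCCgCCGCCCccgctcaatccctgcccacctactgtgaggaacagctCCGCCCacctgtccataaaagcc
Col4a4 to Col4a3, chr1:82586850-82586920, minus strand: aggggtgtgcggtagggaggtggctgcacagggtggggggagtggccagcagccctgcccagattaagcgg

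RefSeq gave 38 windows of 250 bases for 35 of the 44 genes. GGGCGG, read by the Sp1 family, occurred in 57.9% of them and in 32.7% of all 32851 promoter windows, CCAAT in 34.2% and 33.8%, and TATAAA in 13.2% and 12.4%. Of the 9 windows of genes called lower, 6 held GGGCGG, 3 CCAAT and 1 TATAAA, the last in *Col3a1*. These windows covered 8 of the 10 genes called lower, with none for *Col1a1* or *Col5a2*. *Col6a2* had overlapping windows that each held GGGCGG. The 4 GGGCGG matches of the *Col8a1* window show that the motif was also present at the gene called higher. A match is only a description of the letters in the window.

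Genes that fold, cut, cross-link or bind collagen were counted by list, to be read against the 4.99% of all tested genes called lower and the 6.48% called higher. Of 13 tested genes for procollagen cleavage and cross-linking, 5 were called lower and 0 higher, with a median log2 fold change of -0.24. *Lox*, the lysyl oxidase that cross-links collagen and elastin, fell from 7095 ± 933 to 2827 ± 604 normalized counts (SD, n = 5; log2 fold change -1.32, SE 0.14, edgeR adjusted p = 0.000241), with no overlap. *Pcolce2*, an enhancer of procollagen C-proteinase, fell from 4438 ± 396 to 2280 ± 451 normalized counts (SD, n = 5; log2 fold change -0.95, SE 0.12, edgeR adjusted p = 0.000519). *Pxdn*, the peroxidase that forms sulfilimine bonds in type IV collagen, and *Adamts2*, the procollagen N-proteinase, also fell (log2 fold changes -0.57 and -0.47, edgeR adjusted p = 0.000976 and 0.0274).

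Of 20 tested genes for folding and secretion, 1 was called lower, *Serpinh1*, the collagen-specific chaperone HSP47 (log2 fold change -0.54, SE 0.12, edgeR adjusted p = 0.0102). That share of calls was near that of all tested genes, and 17 of the 20 had a negative log2 fold change. At an unadjusted p below 0.05 (edgeR), 9 of the 20 were lower and 1 was higher, where 12.6% of all tested genes were lower. Of 11 genes for fibril-associated and matricellular proteins, *Sparc*, a collagen-binding glycoprotein, fell (log2 fold change -0.96, SE 0.11, edgeR adjusted p = 0.00018) and *Lum*, a proteoglycan of fibrils, rose (log2 fold change 0.58, SE 0.10, edgeR adjusted p = 0.00296). Of 9 genes for collagen degradation, 2 were called higher, *Mmp3* or stromelysin 1 (log2 fold change 1.10, SE 0.13, edgeR adjusted p = 0.000251) and *Mmp9* or gelatinase B (log2 fold change 0.73, SE 0.22, edgeR adjusted p = 0.0465). Of 10 genes of the TGF-beta axis, *Tgfb1* rose (log2 fold change 0.31, SE 0.07, edgeR adjusted p = 0.0148), and of 9 tested collagen receptor genes, 0 were called by edgeR (1 was higher and 1 lower at an unadjusted p below 0.05). The median log2 fold changes were -0.15 for folding, -0.10 for fibril-associated, -0.055 for receptor, -0.012 for degradation and -0.097 for TGF-beta genes. Other tested members of these lists were not called, apart from *Loxl2*, which was called lower. The listed genes *Mmp1a*, *Mmp8*, *Mmp10*, *Mmp13*, *Tll2*, *Kera* and *Gp6* were not tested, and *Ctgf* was not among the gene symbols. Without old replicate 2, 10 of the 11 list genes were still called in the same direction, *Loxl2* was not (edgeR adjusted p = 0.0578), and *Fn1*, the gene of fibronectin, was called higher (log2 fold change 0.55, SE 0.12, edgeR adjusted p = 0.0154).

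Markers of other cells were summed per library, and their calls stand beside the same 4.99% and 6.48% of all tested genes. The 9 fibroblast markers had summed levels of 161233 to 187313 normalized counts in young and 145515 to 195100 normalized counts in old libraries, with 1 called higher (*Lum*) and 1 lower (*Pi16*). Most of that sum came from *Gsn* and *Dcn*, with young means of 74268 and 43273 normalized counts. Of the 9 markers, 6 had a negative and 3 a positive log2 fold change, with a median of -0.069. The 8 endothelial markers summed to 19685 to 33574 normalized counts in young and 10208 to 23778 normalized counts in old libraries, all with a negative log2 fold change and 0 called. Without old replicate 2, 5 of the endothelial markers (*Pecam1*, *Cdh5*, *Vwf*, *Tie1* and *Emcn*) were called lower by edgeR, from -1.45 for *Emcn* to -0.71 for *Tie1* on the log2 scale, with edgeR adjusted p values of 0.00248 to 0.0296. The 7 adipocyte markers summed to 7739 to 26915 normalized counts and 3286 to 10283 normalized counts, with 0 called. The 8 macrophage markers summed to 7602 to 9776 normalized counts and 9835 to 19660 normalized counts, with 3 called higher (*Cd68*, *Adgre1* and *C1qa*), of which *C1qa* was not called without old replicate 2 (edgeR adjusted p = 0.0517). The 7 Schwann cell markers summed to 950.2 to 1880.0 and 1325 to 1655 normalized counts with 1 called higher, and the 8 striated muscle markers to 457 to 1670.4 and 761 to 1885 normalized counts with 1 called higher. The 7 lymphocyte markers, of which 3 were tested and 0 called, summed to 124 to 258 and 213 to 670.1 normalized counts, and the 6 mesothelial markers, none tested, to 8.18 to 41.9 and 10.6 to 22.4 normalized counts. The part of these markers in the levels of collagen genes was not tested.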

How the data were processed

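RNA of 10 aortae, 5 young and 5 old, was sequenced with 1 library per mouse. The authors trimmed the reads with fastp 0.20.0 (removing short ones), aligned them to GRCm38 with STAR 2.7.0f and counted them per gene with featureCounts of Subread 1.6.4, per the submitters' processing notes and the study's methods. The deposited values are raw counts per gene symbol, and all 10 columns matched a labelled sample. Strand setting and treatment of multi-mapping reads are not given in the sources used here. Samples were grouped by the labels, and p-values measure the spread between mice.

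Genes were filtered with filterByExpr and tested with edgeR 4.0.16 (quasi-likelihood F test, robust, TMM scaling, group as the only term) in R 4.3.3. Benjamini-Hochberg adjustment covered all 14614 tested genes. Calls required an adjusted p below 0.05 and no minimum fold. Normalized counts are counts divided by DESeq2 1.42.0 size factors. Standard errors were the log2 fold change divided by the square root of F. Positions, lengths and coding sequences came from GENCODE M21, while the authors used M22. Total counts of about equal depth in each library set the counting precision, which is part of each standard error.

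The members, lists, ratios and tests were chosen with earlier results of these data known. Values per library are given for called genes, for the 8 with the highest per-length level and for partners of a called gene in a trimer or at a shared start, and from each list for at most 4 called genes by smallest p. The values of *Col2a1* are given outside this rule. Alternatives were DESeq2, limma-voom (limma 3.58.1), other scalings and filters, a correction of library trends with GC content and length, a block on the replicate number, a stricter limit of 0.01, and fits that left out 1 mouse. The tests were also run on simulated libraries in which 200 genes changed by the same fold, up or down. The simulation held no smaller changes and no library that stood apart, so no conclusion is drawn from it here.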

Additional observations from a re-analysis of the deposited data

Results flagged for a closer look

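In 96 groups of 5 libraries, 1 library stood far from the other 4 in 9 cases, where about 1 in 20 groups, or 4.8, is expected by chance. Young replicate 3 was such a library 4 times. Its *Col1a1* level was 44381 normalized counts, against 59989 to 66097 in the other young aortae. Its *Col16a1* level was 1737, against 2074 to 2149. Its *Col2a1* level was 29.9, against 2.04 to 5.79, and its *Col8a1*/*Col8a2* ratio was 4.27, against 1.45 to 1.99.

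Old replicate 3 had 116 normalized counts of *Col2a1*, against 9.81 to 37.0 in the other old aortae. Old replicate 2 had 179 of *Col8a2*, against 359.8 to 425, and 1044 of *Col27a1*, against 577 to 704. Young replicate 1 had 203 of *Col6a5*, against 15.1 to 65.8, and old replicate 4 had 872 of *Col6a6*, against 593 to 659. The *Col6a5* and *Col6a6* transcripts share 3.42% and 3.70% of their 50-base windows with other genes, most often with each other, and the part of that in these values was not tested.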

How the results depend on the processing

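The count of collagen genes called lower was 10 and ranged from 8 to 13 over all alternatives, and from 9 to 12 when 1 mouse was left out. The count called higher was 1. It was 0 without the low-count filter and at an adjusted p below 0.01, and 0 to 2 when 1 mouse was left out, with 2 without young replicate 3. Genes outside the 11 that gained a call when 1 mouse was left out were *Col2a1* and *Col19a1* (higher) and *Col4a2*, *Col5a3*, *Col6a6* and *Col16a1* (lower). With the replicate number as a block, 2 genes (*Col2a1* and *Col8a1*) were called higher and 10 lower, with *Col5a1* out and *Col5a3* in. Same-numbered libraries of the groups correlated at -0.30 to 0.13, and 2 of 5 young libraries correlated best with the old library of their number. These values showed no clear pairing of the mice by number, and so few libraries cannot exclude one. Of 400 fold changes of 20 genes under 20 alternatives, 371 kept their direction and call, 11 lost the call, 8 gained it and 10 reversed, all 10 in genes that were not called.

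As differences in medians, the 7 called chain ratios kept their direction: *Col1a1*/*Col1a2* at -0.17, *Col5a1*/*Col5a2* at 0.17, *Col5a1*/*Col1a1* at 0.56, *Col6a1*/*Col6a2* at -0.12, *Col6a3*/*Col6a1* at 0.54, *Col4a1*/*Col4a2* at -0.14 and *Col4a5*/*Col4a6* at -0.21 on the log2 scale. They were no longer called (exact permutation, adjusted p = 0.0748 for all 7). Each was at the smallest p of the medians test, which could not pass after adjustment here, so the loss of these calls shows no dependence. When 1 mouse was left out, the log2 difference ranged from -0.19 to -0.13 for *Col1a1*/*Col1a2*, from 0.17 to 0.24 for *Col5a1*/*Col5a2*, from -0.068 to 0.034 for *Col3a1*/*Col1a1* and from 0.69 to 1.08 for *Col8a1*/*Col8a2*. *Col4a3* reversed to a log2 fold change of 0.0027 with upper-quartile factors, 0.0016 with library size alone and 0.0048 with the GC and length trend removed, and ranged from -0.093 to 0.060 when 1 mouse was left out. *Col6a5* reversed to 0.29 with limma-voom and to 0.17 with the replicate block, and ranged from -0.41 to 0.66. *Col8a2* ranged from -0.16 to 0.11. The cause of these changes was not tested. The 8 genes under the low-count filter had at most 15.0 normalized counts in any library, and no limit of detection was computed for them. The lists, the levels per kb and the shares of the collagen types without old replicate 2 were computed after seeing the data.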
